A study of Mus musculus with 10 samples.

Results

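The genes described here make fatty acids and build them into the phospholipids of lung surfactant and into neutral lipid. They were taken as a list of 49 mouse gene symbols, and each was measured by the probe set whose annotation gives that symbol and no other; of several such probe sets, the one brightest on average was taken. Of the 49 genes, 44 were measured in this way, out of 22180 genes in all. Scd2, Acsl3, Chkb and Cept1 lie on probe sets that name several genes, and no probe set carries the symbol Acsl1 alone, so these 5 were not analysed here. Expression was measured on 10 Affymetrix arrays of sorted lung cells labelled as type 2 alveolar epithelial cells (AEC2s), 5 arrays for each of 2 populations. Axin2+ cells came from Axin2CreERT2-TdTomato mice, in which the promoter of Axin2, a target gene of canonical Wnt signalling, drives a tamoxifen-dependent Cre. They were sorted as TdTomato+, EpCAM+, CD31- and CD45-, a gate that names no AEC2 protein. SP-C+ cells came from SftpcCreERT2-R26REYFP mice, in which the surfactant protein C promoter drives the Cre, and were sorted by YFP after 24 h of lineage tracing. All mice were at postnatal day 4 by title and age label, although a description shared by the samples speaks of P3 and adult cells. They shared a mixed background of C57BL/6, 129S6 and CD-1, and the labels give no treatment. The study set Wnt-responsive AEC2s against AEC2s as a whole. Mouse line, reporter and gate differ with the population, so they cannot be told apart from the cell label. A tracing time is given for SP-C+ cells only, so a difference in it cannot be told apart either.

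Surfactant is a lipid film with a small protein part. Most of it is phosphatidylcholine, much of it carrying palmitate on both chains, with phosphatidylglycerol as the other main phospholipid. AEC2s make palmitate from acetyl-CoA, attach acyl chains to glycerol phosphate, and turn the phosphatidic acid so made into diacylglycerol, for phosphatidylcholine, or into CDP-diacylglycerol, for phosphatidylglycerol. They then exchange acyl chains by remodelling and store the product in lamellar bodies. The sterol regulatory element binding proteins (SREBPs) are transcription factors that switch on many of the fatty acid synthesis genes, often together with NF-Y and Sp1.

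In Axin2+ arrays, 4 of 6 genes of acetyl-CoA, NADPH and palmitate supply were lower than in SP-C+ arrays. So were several phosphatidate-handling genes and the triglyceride genes Dgat2 and Plin2. The desaturases Scd1 and Fads1 were lower too, but neither call was firm. Agpat4, Pcyt1b and Lpcat4, each 1 of several isoforms of its step, were higher. Of the 44 measured genes, 15 were lower (34.1%) and 3 were higher (6.82%) at an adjusted p under 0.05 (limma, Benjamini-Hochberg over all genes), and 26 were not called. Over all 22180 genes, 17.6% were called, 8.95% as lower and 8.61% as higher. The share of lower calls among the lipid genes was therefore well above the share over all genes, and the share of higher calls was close to it. This list and the further lists below were chosen with earlier results of these data known. Their shares therefore describe the lists and are no test of them. The 5 Axin2+ arrays lay wholly below the 5 SP-C+ arrays for 15 lipid genes (34.1%, against 7.66% of all genes) and wholly above them for 3 (6.82%, against 7.38% of all genes). Differences are given in log2 units as the Axin2+ mean less the SP-C+ mean, and their median was -0.21 for the lipid genes and -0.04 for all genes.

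The lipid genes are bright on these arrays, with 40 of 44 above the median gene. Bright genes are called more often, so the 11090 genes above the median were also fitted alone. In that fit 18 of 40 lipid genes were lower (45%), against 19.6% of the bright genes, and 3 were higher (7.5%), against 14.5%. The differences were small: among the 15 lower genes they ran from -1.26 to -0.26, with a median of -0.56. In sorted cells measured in bulk, fewer cells of a type and less RNA per cell cannot be told apart, and the labels do not say that replicates are separate animals, so the p-values measure only the spread between these samples.

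**Figure D1:**
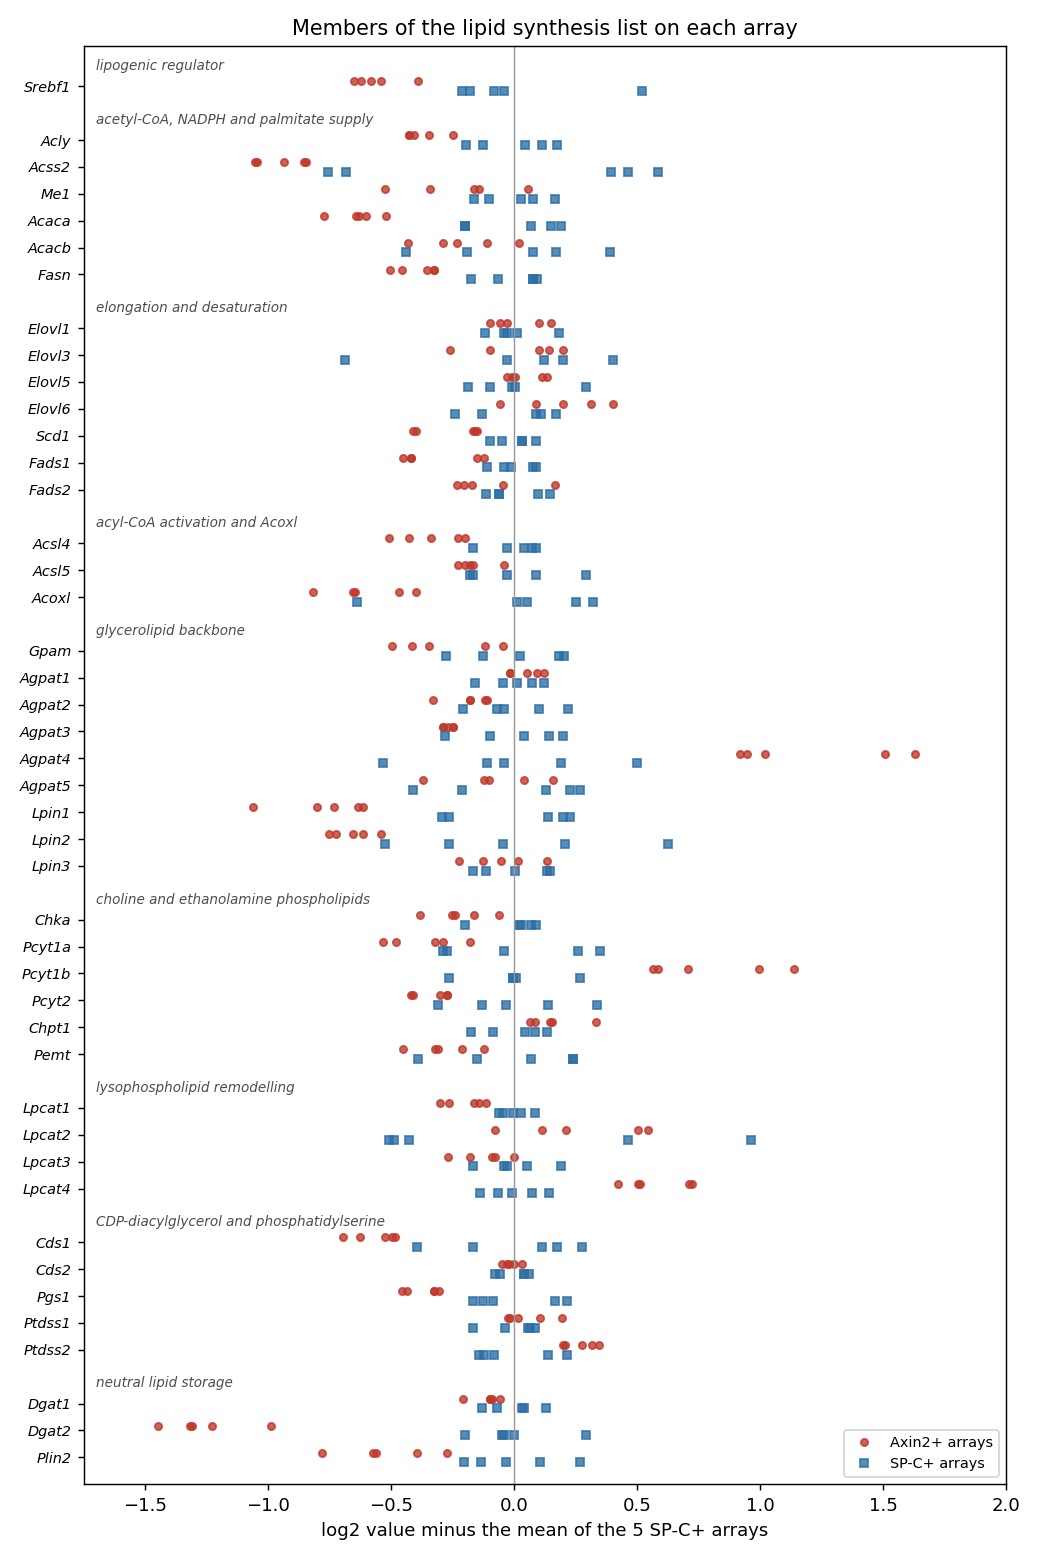
Each row is 1 measured lipid gene, grouped by role, with its 5 Axin2+ arrays (red circles) above its 5 SP-C+ arrays (blue squares); the horizontal axis is the log2 value minus the mean of the SP-C+ arrays. Dgat2, Lpin1 and Acaca lie to the left in all 5 Axin2+ arrays, Agpat4, Pcyt1b and Lpcat4 to the right, and the SP-C+ arrays of Acss2 form a high set of 3 and a low pair.

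**Figure D2:**
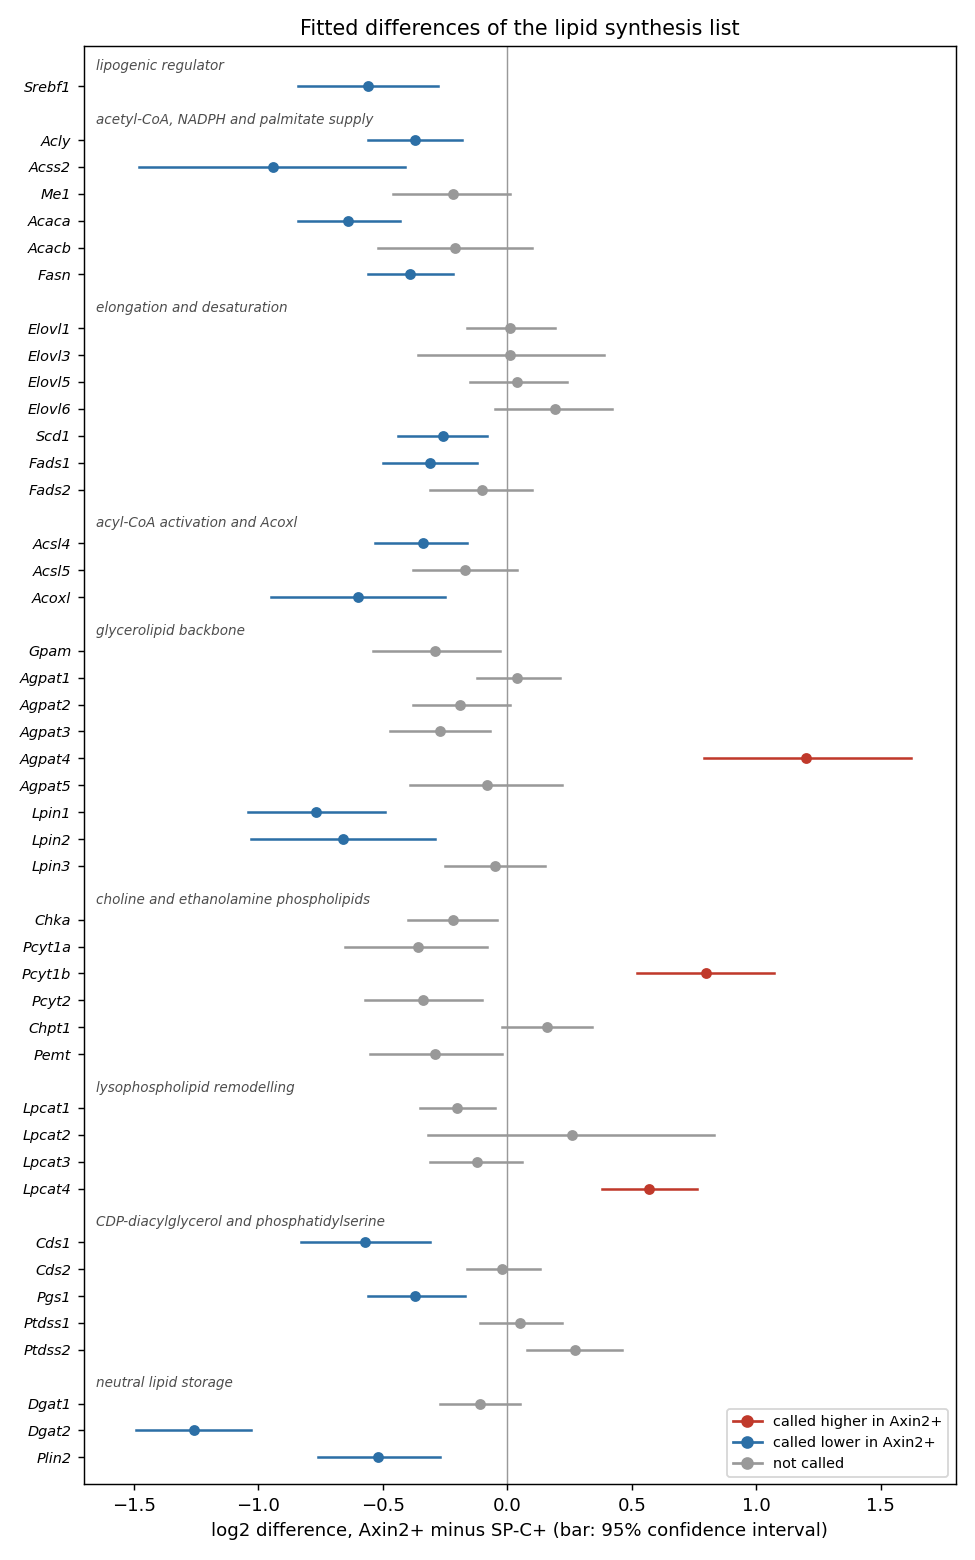
Log2 difference (Axin2+ minus SP-C+) of each measured lipid gene with its 95% confidence interval from limma, ordered by role; red marks genes called higher in Axin2+, blue genes called lower and grey genes not called. The differences run from -1.26 for Dgat2 to 1.20 for Agpat4, and 15 genes are called lower and 3 higher.

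Sequence around the transcription start was available for 40 of the 49 genes, as windows from 250 bases before to 50 bases after each start (RefSeq, assembly GRCm38.p6). Windows of 5 genes whose differences are described below are printed in the direction of the gene, 5' to 3': Srebf1, Fasn and Acss2, which were lower, and Agpat4 and Pcyt1b, which were higher. Fasn was added after its values were seen. Capitals mark every match, on either strand, to the NF-Y box (CCAAT, written ATTGG on the other strand) or the Sp1 box (GGGCGG, written CCGCCC on the other strand).
Srebf1, the second of its 3 windows, chr11:60220578-60220877, minus strand: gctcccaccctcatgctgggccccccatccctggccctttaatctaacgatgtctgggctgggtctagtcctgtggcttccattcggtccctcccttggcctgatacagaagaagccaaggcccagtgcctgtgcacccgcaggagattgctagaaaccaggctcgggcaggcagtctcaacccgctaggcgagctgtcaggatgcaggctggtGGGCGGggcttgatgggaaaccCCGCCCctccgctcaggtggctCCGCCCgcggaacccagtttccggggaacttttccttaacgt
Fasn, chr11:120824498-120824797, minus strand: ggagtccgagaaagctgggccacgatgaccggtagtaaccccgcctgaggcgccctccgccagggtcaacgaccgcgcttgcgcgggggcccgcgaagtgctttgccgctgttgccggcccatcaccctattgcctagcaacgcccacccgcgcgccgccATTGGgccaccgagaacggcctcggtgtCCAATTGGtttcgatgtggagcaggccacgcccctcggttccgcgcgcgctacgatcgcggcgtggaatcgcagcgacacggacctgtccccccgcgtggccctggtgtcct
Acss2, chr2:155517793-155518092, plus strand: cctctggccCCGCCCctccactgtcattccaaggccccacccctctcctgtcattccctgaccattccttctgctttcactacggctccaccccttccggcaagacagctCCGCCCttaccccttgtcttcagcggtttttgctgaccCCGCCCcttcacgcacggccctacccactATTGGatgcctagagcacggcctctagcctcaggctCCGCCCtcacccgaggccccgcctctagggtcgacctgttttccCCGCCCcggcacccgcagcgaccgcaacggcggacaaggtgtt
Agpat4, chr17:12119034-12119333, plus strand: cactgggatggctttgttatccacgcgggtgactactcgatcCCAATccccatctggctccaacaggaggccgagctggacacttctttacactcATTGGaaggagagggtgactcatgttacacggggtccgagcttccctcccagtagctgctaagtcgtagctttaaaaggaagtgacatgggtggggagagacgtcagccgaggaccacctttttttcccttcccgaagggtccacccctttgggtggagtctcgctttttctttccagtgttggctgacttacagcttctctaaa
Pcyt1b, the first of its windows, chrX:93654613-93654912, plus strand: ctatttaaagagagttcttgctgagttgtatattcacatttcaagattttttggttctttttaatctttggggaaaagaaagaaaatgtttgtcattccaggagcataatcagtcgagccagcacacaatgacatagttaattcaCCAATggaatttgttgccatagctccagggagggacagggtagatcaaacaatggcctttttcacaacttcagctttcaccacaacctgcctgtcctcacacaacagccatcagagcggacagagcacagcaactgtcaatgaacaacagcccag

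The Fasn window holds 3 NF-Y boxes, 1 of them at position -90 and an overlapping inverted pair that starts at position -62. The Acss2 window holds 5 Sp1 boxes and 1 NF-Y box, and the printed Srebf1 window holds 3 Sp1 boxes and no NF-Y box. Of the Srebf1 windows not printed, the first holds 1 NF-Y box and no Sp1 box, and the third holds 1 NF-Y box and 2 Sp1 boxes. The genes that were higher carry such boxes too, with 2 NF-Y boxes in Agpat4 and 1 in Pcyt1b. Not all lower genes do: the windows of Lpin1 and Acaca, which are not printed, hold neither box. That of Cds1, also lower and not printed, holds 3 Sp1 boxes and no NF-Y box. Over the 50 windows of the 36 measured genes that have one, an NF-Y box was found in 25 (50%) and a Sp1 box in 29 (58.0%), against 37.4% and 35.7% of the 32851 windows of all genes. The E-box CACGTG was found in 4 windows (8.0%, in Elovl5, Lpin2, Lpin3 and Plin2), against 7.15% of all windows. The sterol regulatory element, searched as TCACNCCAC on both strands, was found in 2 windows (4.0%), both of Pcyt1a, against 1.24% of all windows. Overlapping matches are counted separately. Such matches describe the letters of these windows and do not show binding, which was not measured.

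Srebf1 encodes SREBP-1, the SREBP most tied to fatty acid synthesis. Its log2 values were 9.87, 10.02, 9.76, 9.79 and 9.83 in the Axin2+ arrays, against 10.93, 10.20, 10.37, 10.23 and 10.33 in the SP-C+ arrays. Every Axin2+ array lay below every SP-C+ array, and SP-C+ replicate 1 stood above the other arrays of its group. The difference was -0.56 ± 0.13 (SE, n = 5 per group; adjusted p = 0.00842, limma), and it was -0.43 without SP-C+ replicate 1 (adjusted p = 0.00289).

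Of the 6 measured genes that supply acetyl-CoA and NADPH and make palmitate, 4 were lower and none was higher in Axin2+ arrays, with a median difference of -0.38. Acaca encodes acetyl-CoA carboxylase 1, which makes malonyl-CoA in the committed step of fatty acid synthesis. Its log2 values were 9.89, 9.97, 9.72, 9.85 and 9.86 in Axin2+ arrays, against 10.56, 10.68, 10.64, 10.29 and 10.29 in SP-C+ arrays. The groups did not overlap, and SP-C+ replicates 4 and 5 were the lowest of theirs. Acaca fell by 0.64 ± 0.10 (adjusted p = 4.97e-04), or 1.55-fold. Fasn, the fatty acid synthase, had log2 values of 12.56, 12.69, 12.51, 12.69 and 12.66 in Axin2+ arrays, against 13.11, 13.09, 13.09, 12.84 and 12.95 in SP-C+ arrays. It too was lower in every Axin2+ array than in any SP-C+ array, by 0.39 ± 0.08 on the log2 scale (adjusted p = 0.00357).

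Acly, the ATP citrate lyase that makes cytosolic acetyl-CoA from citrate, had log2 values of 11.52, 11.44, 11.46, 11.62 and 11.44 in Axin2+ arrays, against 11.67, 12.04, 11.98, 11.74 and 11.91 in SP-C+ arrays. The groups came close to each other without overlap, and the difference was -0.37 ± 0.09 (adjusted p = 0.0102). Acss2 makes acetyl-CoA from acetate. It had log2 values of 8.06, 8.26, 8.17, 8.25 and 8.05 in Axin2+ arrays, against 9.57, 9.50, 9.69, 8.42 and 8.35 in SP-C+ arrays. The SP-C+ arrays fell into a high set of 3 and a low pair, replicates 4 and 5, that lay just above the Axin2+ arrays. The difference of -0.94 ± 0.25 (adjusted p = 0.0181) therefore rests on SP-C+ replicates 1, 2 and 3: it was -1.42 without replicates 4 and 5 (adjusted p = 1.70e-06) and -0.22 without replicates 1, 2 and 3 (adjusted p = 0.176). Neither remaining gene was called: Me1, the cytosolic malic enzyme that yields NADPH, differed by -0.22 (95% interval -0.46 to 0.01), and Acacb, the mitochondrial acetyl-CoA carboxylase, by -0.21 (-0.52 to 0.10).

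Among the 7 measured genes of chain elongation and desaturation, Scd1 and Fads1 were lower, none was higher, and the median difference was 0.01. Scd1 puts the first double bond into palmitate and stearate. Its log2 values were 13.23, 13.24, 12.99, 13.00 and 13.25 in Axin2+ arrays, against 13.49, 13.43, 13.30, 13.43 and 13.35 in SP-C+ arrays. Fads1, a desaturase of polyunsaturated chains, had log2 values of 11.59, 11.56, 11.29, 11.26 and 11.29 in Axin2+ arrays, against 11.80, 11.70, 11.67, 11.60 and 11.79 in SP-C+ arrays. Both genes were lower in every Axin2+ array by narrow gaps, with differences of -0.26 ± 0.08 for Scd1 (adjusted p = 0.0446) and -0.31 ± 0.09 for Fads1 (adjusted p = 0.0284). Neither call is firm: leaving out 1 array ended the Scd1 call for 8 of the 10 arrays, all but SP-C+ replicate 3 and Axin2+ replicate 5 (adjusted p up to 0.115), and the Fads1 call for SP-C+ replicates 1 and 5 and Axin2+ replicates 3, 4 and 5 (adjusted p up to 0.0762). Fads2, the partner desaturase of Fads1, differed by -0.10 (-0.31 to 0.10). The elongases were not called, with differences of 0.01 for Elovl1, 0.01 for Elovl3, 0.04 for Elovl5 and 0.19 for Elovl6, the elongase of palmitate (-0.05 to 0.42).

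Fatty acids enter lipid synthesis as acyl-CoA, made by the long-chain acyl-CoA synthetases. Acsl4, the synthetase that prefers arachidonate, had log2 values of 11.78, 11.98, 11.70, 12.01 and 11.87 in Axin2+ arrays, against 12.28, 12.25, 12.04, 12.18 and 12.30 in SP-C+ arrays. The highest Axin2+ array lay just below the lowest SP-C+ array, and the difference was -0.34 ± 0.08 (adjusted p = 0.0134). Acsl5 differed by -0.17 (-0.38 to 0.04) and was not called. Acoxl, named for its likeness to the peroxisomal acyl-CoA oxidases, had log2 values of 10.58, 10.93, 10.75, 10.74 and 11.00 in Axin2+ arrays, against 10.76, 11.41, 11.45, 11.72 and 11.65 in SP-C+ arrays. It is the only called gene of the list whose groups overlap, because SP-C+ replicate 1 lay among the Axin2+ arrays. The difference was -0.60 ± 0.16 (adjusted p = 0.0198). It was -0.76 without SP-C+ replicate 1 (adjusted p = 3.57e-04), and the call ended without Axin2+ replicate 1 (-0.55, adjusted p = 0.0517). The call also ended without SP-C+ replicates 4 and 5 together (-0.41, adjusted p = 0.106), but it held without either alone (adjusted p = 0.0461 and 0.0446). SP-C+ replicates 2 and 3, at 11.41 and 11.45, lay above every Axin2+ array too. With replicates 4 and 5 as the only SP-C+ arrays, the difference was -0.89 (adjusted p = 0.00125).

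The glycerolipid backbone is built by acyltransferases that make phosphatidic acid and by the lipins, phosphatases that turn it into diacylglycerol. Of the 9 measured genes, Lpin1 and Lpin2 were lower and Agpat4 was higher. Lpin1 had log2 values of 9.01, 8.82, 8.56, 8.89 and 8.99 in Axin2+ arrays, against 9.82, 9.76, 9.85, 9.33 and 9.36 in SP-C+ arrays. The groups were separate, with SP-C+ replicates 4 and 5 again nearest to the Axin2+ arrays, and Lpin1 fell by 0.77 ± 0.13 (adjusted p = 0.00102), or 1.70-fold. Lpin2 had log2 values of 10.02, 10.16, 10.05, 10.23 and 10.12 in Axin2+ arrays, against 11.40, 10.98, 10.73, 10.25 and 10.51 in SP-C+ arrays. SP-C+ replicate 4 almost touched the highest Axin2+ array, and the difference of -0.66 ± 0.17 (adjusted p = 0.0179) was -0.27 without SP-C+ replicates 1, 2 and 3 (adjusted p = 0.138). A second Lpin2 probe set differed by -0.53, but with the mean of both the difference was -0.59 and was not called (adjusted p = 0.0818). Lpin3 differed by -0.05 (-0.25 to 0.15).

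Agpat4 encodes an acyltransferase of lysophosphatidic acid. Its log2 values were 7.06, 6.96, 7.67, 7.55 and 6.99 in Axin2+ arrays, against 6.54, 6.00, 5.93, 6.23 and 5.51 in SP-C+ arrays. All Axin2+ arrays lay above all SP-C+ arrays, and the gene was 2.30-fold higher (difference 1.20 ± 0.19, adjusted p = 7.38e-04), the largest rise on the list. The other acyltransferases of the same step were not called: Agpat1 differed by 0.04 (-0.12 to 0.21), Agpat2 by -0.19 (-0.38 to 0.01), Agpat3 by -0.27 (-0.47 to -0.07, adjusted p = 0.0634; 0.0117 without SP-C+ replicate 5) and Agpat5 by -0.08 (-0.39 to 0.22). Gpam, the mitochondrial enzyme that adds the first acyl chain to glycerol phosphate, differed by -0.29 (-0.54 to -0.03, adjusted p = 0.118). No test was made between isoforms.

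Phosphatidylcholine is made mainly from choline through CDP-choline. Of the 6 measured genes of the choline and ethanolamine branches none was lower and 1 was higher, with a median difference of -0.25. That gene, Pcyt1b, encodes the beta isoform of the enzyme that makes CDP-choline and sets the rate of the pathway. Its log2 values were 5.71, 5.57, 5.14, 5.28 and 5.16 in Axin2+ arrays, against 4.57, 4.31, 4.58, 4.84 and 4.57 in SP-C+ arrays. The groups were separate in this dim gene, which was 1.74-fold higher in Axin2+ arrays (difference 0.80 ± 0.13, adjusted p = 7.47e-04). The alpha isoform Pcyt1a, the main form in lung, ranged from 9.44 to 9.79 in Axin2+ arrays and from 9.68 to 10.32 in SP-C+ arrays, a difference of -0.36 (-0.65 to -0.08, adjusted p = 0.0785) that was not called. Chka, the choline kinase at the head of the pathway, differed by -0.22 (adjusted p = 0.0986), Pcyt2, which makes CDP-ethanolamine, by -0.34 (adjusted p = 0.0539), and Pemt, which methylates phosphatidylethanolamine to phosphatidylcholine, by -0.29 (adjusted p = 0.135). Chpt1, the choline phosphotransferase of the last step, differed by 0.16 (-0.02 to 0.34). Several of these genes were lower at the threshold when 1 SP-C+ array was left out: Pcyt1a without replicate 4 or 5 (adjusted p = 0.0436 and 0.0383), Chka without replicate 4 (0.0407), Pcyt2 without replicate 2 (0.0161) and Pemt without replicate 5 (0.0232).

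Remodelling exchanges acyl chains on finished phospholipids, and Lpcat1 is the acyltransferase of AEC2s known for placing palmitate on lysophosphatidylcholine. Lpcat1 ranged from 12.97 to 13.16 in Axin2+ arrays and from 13.21 to 13.36 in SP-C+ arrays. The groups did not overlap, but the difference of -0.20 (-0.35 to -0.05) missed the threshold (adjusted p = 0.0727). Lpcat1 passed as lower in 4 of 21 alternative fits, among them the fit of bright genes (adjusted p = 0.0321, limma). Lpcat4 had log2 values of 8.36, 8.45, 8.65, 8.44 and 8.66 in Axin2+ arrays, against 8.08, 7.80, 7.93, 8.01 and 7.87 in SP-C+ arrays. All Axin2+ arrays were above all SP-C+ arrays, and Lpcat4, which acylates several lysophospholipids, was 1.49-fold higher (difference 0.57 ± 0.09, adjusted p = 4.98e-04). Lpcat3 differed by -0.12 (-0.31 to 0.06). Lpcat2 differed by 0.26 (-0.32 to 0.83), with SDs of 0.26 in Axin2+ and 0.67 in SP-C+ arrays.

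Phosphatidylglycerol and phosphatidylinositol are made from CDP-diacylglycerol. Cds1, a synthase of CDP-diacylglycerol, had log2 values of 9.61, 9.65, 9.51, 9.64 and 9.44 in Axin2+ arrays, against 10.41, 10.31, 10.25, 9.97 and 9.74 in SP-C+ arrays. Pgs1, which commits CDP-diacylglycerol to phosphatidylglycerol and cardiolipin, had log2 values of 10.57, 10.72, 10.59, 10.70 and 10.70 in Axin2+ arrays, against 10.94, 11.19, 11.24, 10.86 and 10.90 in SP-C+ arrays. Both genes were lower in every Axin2+ array, with SP-C+ replicates 4 and 5 the lowest of their group. The differences were -0.57 ± 0.12 for Cds1 (adjusted p = 0.00507) and -0.37 ± 0.09 for Pgs1 (adjusted p = 0.0131). The paralogue Cds2 differed by -0.02 (-0.16 to 0.13). The phosphatidylserine synthases were not called, at 0.05 (-0.11 to 0.22) for Ptdss1 and 0.27 (0.08 to 0.46, adjusted p = 0.0533) for Ptdss2, which passed as higher without SP-C+ replicate 4 (adjusted p = 0.0196) or 5 (0.0412).

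Neutral lipid storage held the largest difference on the list. Dgat2 adds the last acyl chain of triglyceride. It had log2 values of 7.75, 7.62, 7.84, 7.76 and 8.08 in Axin2+ arrays, against 9.03, 9.07, 9.02, 9.36 and 8.87 in SP-C+ arrays. The gap between the groups was wider than the spread within either, SP-C+ replicates 4 and 5 did not stand apart, and Dgat2 was 2.40-fold lower in Axin2+ arrays (difference -1.26 ± 0.11, adjusted p = 2.39e-06). Dgat1, which catalyses the same step, differed by -0.11 (-0.27 to 0.05). Plin2, the coat protein of lipid droplets, had log2 values of 10.213, 10.003, 10.219, 10.393 and 10.511 in Axin2+ arrays, against 10.748, 10.890, 11.047, 10.583 and 10.648 in SP-C+ arrays. The groups came near each other at Axin2+ replicate 5 and SP-C+ replicate 4, and Plin2 fell by 0.52 ± 0.11 (adjusted p = 0.00686).

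**Figure D3:**
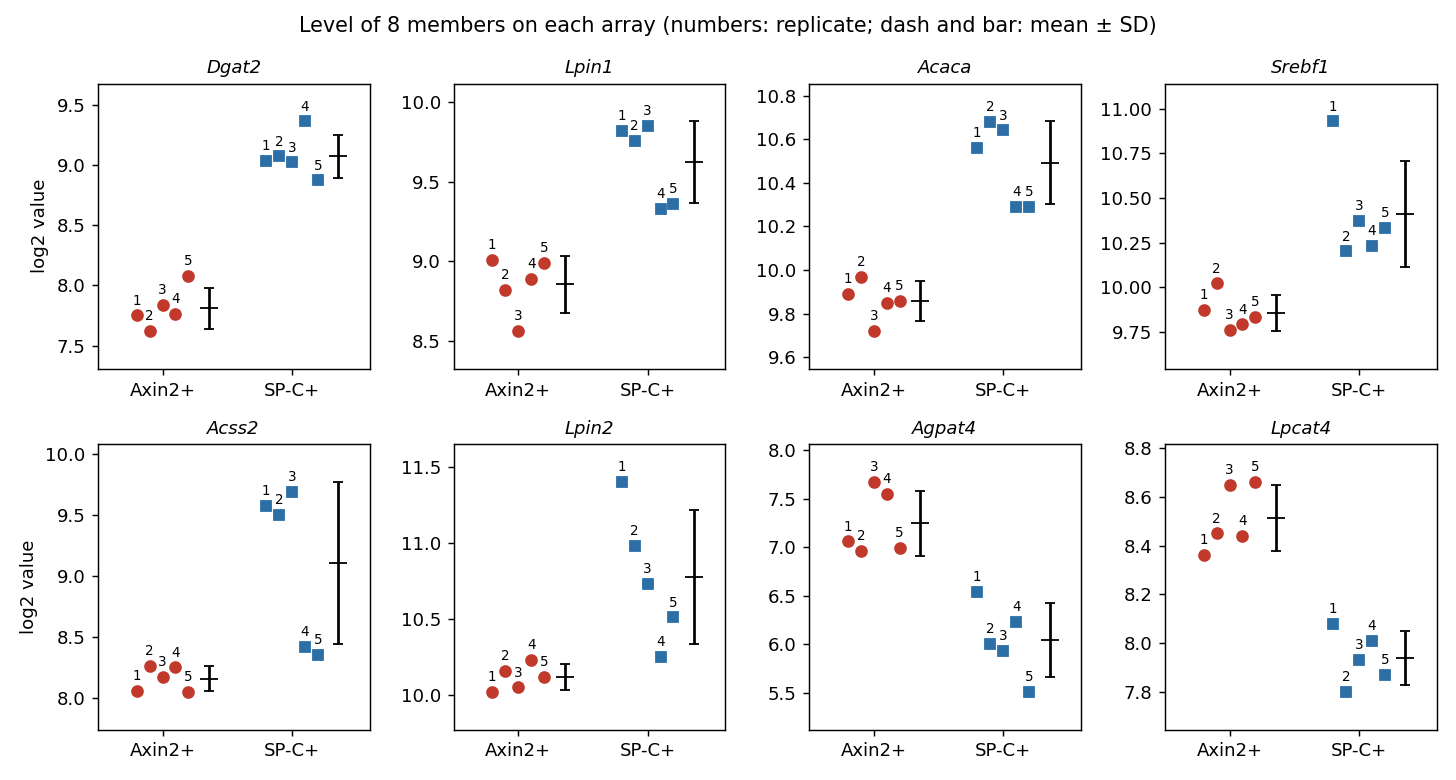
Log2 values of 8 lipid genes on each array, Axin2+ (red circles) left of SP-C+ (blue squares) in each panel, with replicate numbers and the group mean ± SD; the 8 were chosen after their values were seen. The groups do not overlap in any panel, SP-C+ replicates 4 and 5 of Acss2 and replicate 4 of Lpin2 come close to the Axin2+ arrays, and Agpat4 and Lpcat4 are higher in Axin2+.

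The SP-C+ arrays varied more than the Axin2+ arrays. The median SD of the lipid genes was 0.11 in Axin2+ and 0.18 in SP-C+ arrays, against 0.13 and 0.17 over all genes. SP-C+ replicates 4 and 5 were both below replicates 1, 2 and 3 for 15 of the 44 lipid genes (34.1%), against 14.8% of all genes, and both above them for 5 (11.4%), against 14.4% of all genes. The mean over the lipid genes was 9.51, 9.55, 9.49, 9.55 and 9.54 in the Axin2+ arrays, against 9.82, 9.73, 9.77, 9.63 and 9.62 in the SP-C+ arrays. Every SP-C+ array thus had a higher mean than every Axin2+ array, with replicates 4 and 5 the nearest. With SP-C+ replicates 1, 2 and 3 left out, 6 of 44 were lower (13.6%), against 6.02% of all genes, and the median difference was -0.11; without replicates 4 and 5, 15 were lower (34.1%), against 9.82% of all genes. Those 15 were not the same genes as with all arrays: the calls of Acoxl, Scd1 and Fads1 ended (adjusted p 0.106, 0.0875 and 0.0518), while Agpat3 (-0.39, adjusted p = 0.00418), Pcyt1a (-0.55, adjusted p = 0.00689) and Pemt (-0.47, adjusted p = 0.00579) passed as lower and Ptdss2 (0.38, adjusted p = 0.00541) as higher. Besides Acss2, Lpin2, Scd1 and Fads1, the calls of Acly, Fasn, Acsl4, Cds1, Pgs1 and Plin2 ended without SP-C+ replicates 1, 2 and 3, with differences of -0.33, -0.27, -0.37, -0.29, -0.22 and -0.35 (adjusted p 0.0505 to 0.134). Gpam (-0.48, adjusted p = 0.0444) and Lpcat2 (0.72, adjusted p = 0.0217) passed there. At an adjusted p under 0.05, Dgat2, Lpin1, Acaca and Srebf1 stayed lower and Agpat4 and Lpcat4 stayed higher in all 21 alternative fits; Pcyt1b stayed higher in the 20 that held it, since it was too dim for the fit of genes above the median.

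Other cell types and the cell cycle moved with the groups. All 12 AEC2 markers were above the median gene. Their list mean was 13.05 to 13.15 in Axin2+ arrays and 13.22 to 13.29 in SP-C+ arrays. Of the 12, 1 was lower (Sftpd, difference -0.32) and none was higher, and 11 differences were negative. The exception was Sftpc, at 14.08 to 14.15 in Axin2+ and 13.97 to 14.05 in SP-C+ arrays (difference 0.1, not called). Its values lay close to the highest value of the data, 14.16, where differences may be compressed. Scd1, Lpcat1 and Fasn were also among the brightest genes (percentiles 99.9, 99.9 and 99.7 of mean level), so the same limit may hold for them. Markers of type 1 cells were higher for 12 of 12 genes (list mean 11.45 to 11.82 in Axin2+, against 9.04 to 9.52 in SP-C+; Spock2 by 4.54 and Rtkn2 by 3.97), of ciliated cells for 11 of 11 (8.24 to 8.60 in Axin2+, against 5.60 to 5.81 in SP-C+; Cdhr3 by 4.36 and Sntn by 4.07) and of club cells for 6 of 8 (8.04 to 8.50 in Axin2+, against 6.62 to 7.22 in SP-C+; Scgb1a1 by 2.73 and Aldh1a1 by 2.68). Cell cycle genes were higher for 16 of 21; their list mean ran from 7.81 to 8.81 in Axin2+ arrays and was 6.98, 7.01, 6.97, 7.75 and 7.99 in SP-C+ replicates 1 to 5. Endothelial markers (none of 10 called in either direction) had list means of 6.81 to 7.04 in Axin2+ and 6.66 to 7.75 in SP-C+ arrays, highest in SP-C+ replicate 1. Mesenchymal and lipofibroblast markers, 1 of 12 lower, had list means of 5.96 to 6.24 in Axin2+ and 5.92 to 6.62 in SP-C+ arrays. Leukocyte markers, 1 of 11 lower (Mrc1), had list means of 5.44 to 5.70 in Axin2+ and 5.68 to 6.23 in SP-C+ arrays. All 11 of their differences were negative, with a median of -0.3. The part of these cell types, and of the cell cycle, in the differences of the lipid genes was not tested.

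**Figure D4:**
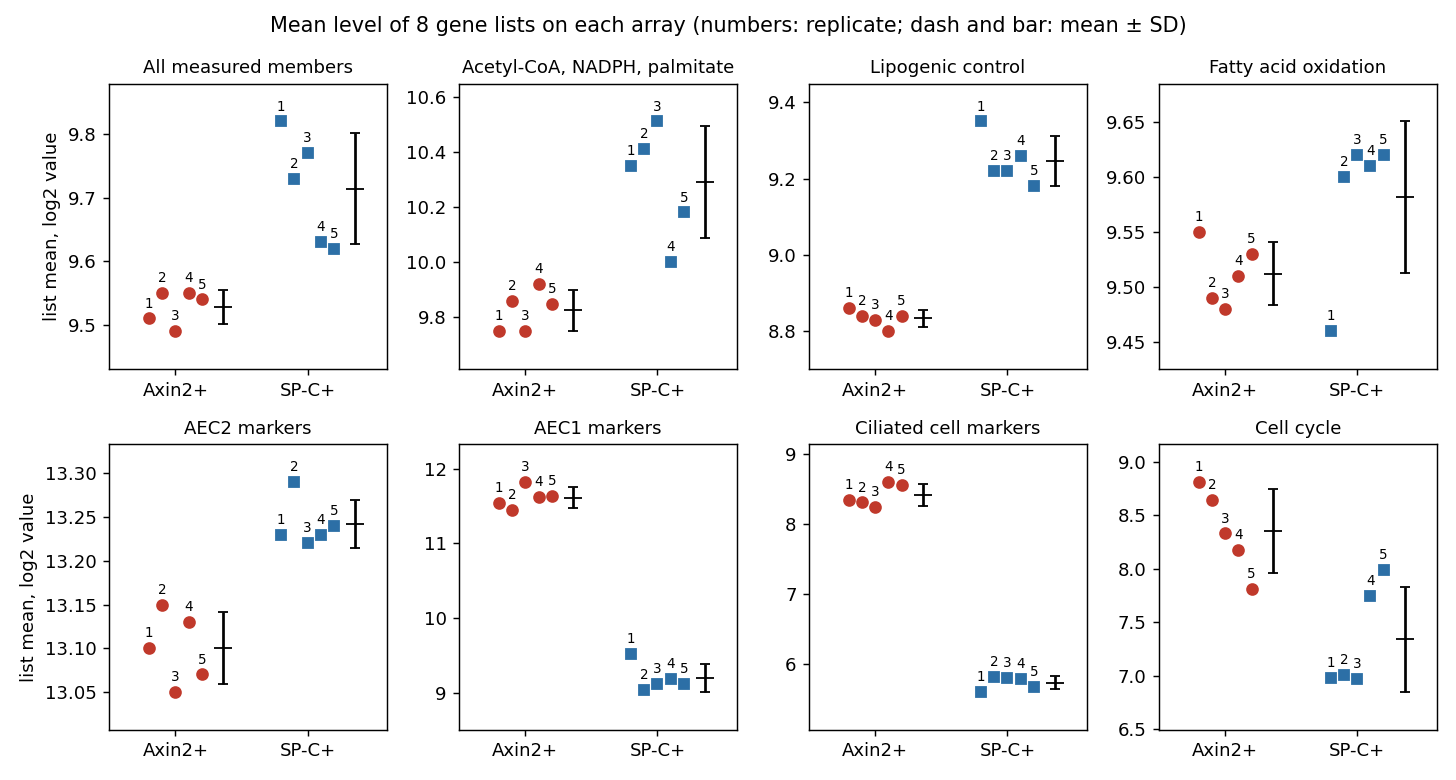
Mean log2 value of 8 gene lists on each array, Axin2+ (red circles) left of SP-C+ (blue squares), with replicate numbers and the group mean ± SD; each panel has its own vertical axis. The mean of the lipid genes and that of the AEC2 markers are lower in every Axin2+ array than in any SP-C+ array, and the type 1 and ciliated cell marker means are higher in every Axin2+ array.

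Of 13 measured genes of lipogenic control outside the list, 8 were lower (61.5%, against 8.95% of all genes), none was higher and 5 were not called, with a median difference of -0.38. In the fit of bright genes, 9 of 12 were lower (75%, against 19.6%). Pparg, a nuclear receptor that drives fat storage, had log2 values of 7.19, 7.22, 7.21, 7.20 and 7.41 in Axin2+ arrays, against 9.04, 8.19, 8.32, 7.85 and 7.95 in SP-C+ arrays. The Axin2+ arrays lay close together and below every SP-C+ array, and SP-C+ replicate 1 was the highest (difference -1.03 ± 0.18, adjusted p = 0.00161). Mlxipl, the glucose-responsive factor ChREBP, fell by 0.69 ± 0.13 (adjusted p = 0.00302), and Cebpa, a transcription factor of fat and lung epithelium, by 0.62 ± 0.07 (adjusted p = 3.81e-05). Srebf2, the SREBP most tied to cholesterol synthesis, fell by 0.59 ± 0.08 (adjusted p = 2.47e-04), and Insig1, which holds SREBPs in the endoplasmic reticulum, by 0.54 ± 0.11 (adjusted p = 0.00539). With SP-C+ replicates 1, 2 and 3 left out, 5 of 13 were lower.

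Among 35 measured genes of further lipid synthesis steps, 8 were lower (22.9%) and 3 higher (8.57%), against 8.95% and 8.61% of all genes, with a median difference of -0.14. The share of higher calls was that of all genes; in the fit of bright genes 10 of 28 were lower (35.7%, against 19.6%) and 3 higher (10.7%, against 14.5%). Fitm2, which helps lipid droplets form, fell by 0.77 ± 0.09 (adjusted p = 5.06e-05). Cdipt, the phosphatidylinositol synthase, which also uses CDP-diacylglycerol, was 1.77-fold higher (difference 0.82 ± 0.09, adjusted p = 3.82e-05), and all Axin2+ arrays were above all SP-C+ arrays. Mboat2, a lysophospholipid acyltransferase, was 2.92-fold higher (difference 1.55 ± 0.34, adjusted p = 0.00654), although SP-C+ replicate 1, at 7.26, lay among the Axin2+ arrays, which ran from 7.00 to 8.18. Mboat1, another such acyltransferase, fell by 0.75 ± 0.21 (adjusted p = 0.0271), with SP-C+ replicate 5 among the Axin2+ arrays. Leaving out SP-C+ replicate 2 or Axin2+ replicate 2 brought the lower genes to 5, and leaving out SP-C+ replicates 1, 2 and 3 brought them to 4.

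Of 16 measured genes of lipid uptake, export and breakdown, 6 were lower (37.5%, against 8.95% of all genes) and 2 higher (12.5%, against 8.61%). Their median difference was -0.23. The lists share genes: Plin3, called lower, is counted here and among the further lipid synthesis genes, and Abca3, not called, is also an AEC2 marker. In the fit of bright genes 7 of 13 were lower (53.8%, against 19.6%) and 1 was higher (7.69%, against 14.5%). Pnpla2, the first lipase of triglyceride breakdown, fell by 0.76 ± 0.11 (adjusted p = 3.66e-04), and Vldlr, a lipoprotein receptor, fell by 0.71 ± 0.09 (adjusted p = 7.09e-05). Abhd5, the activator of that lipase, fell by 0.57 ± 0.09 (adjusted p = 6.97e-04). Lipa, the lysosomal acid lipase, rose by 0.46 ± 0.10 (adjusted p = 0.00699), and Plin5, a droplet coat protein, rose by 0.24 ± 0.07 (adjusted p = 0.0464); only 1 gene was higher in 8 of the 10 fits that left out 1 array. Of the 20 measured genes of fatty acid oxidation, 1 was lower (5%, against 8.95% of all genes; Echs1, difference -0.33 ± 0.09, adjusted p = 0.0238) and none was higher by limma, and 2 had an unadjusted p under 0.05. Echs1 was not called without SP-C+ replicate 2, Axin2+ replicate 2 or Axin2+ replicate 3, and 1 oxidation gene was higher without SP-C+ replicate 5. The median difference of the oxidation genes was -0.07, near the -0.04 of all genes.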

How the data were processed

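Expression was measured on 10 arrays, 5 of Axin2+ and 5 of SP-C+ cells. The authors deposited normalized log2 values for 41345 probe sets, which ran from 1.69 to 14.16 with array medians of 5.89 to 5.97. Per the submitters' processing notes, oligo, RMA and limma were used, with no version or role given; base 2 was read from the range of the values, and background signal in such values understates the change of dim genes. The platform annotation, which may be old, gives 1 gene symbol to 23521 probe sets, several to 1814 and none to 16010; 22180 genes were kept, 1082 of them with several probe sets. The number of arrays limits the precision.

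The populations, taken from the titles, were compared on these values by lmFit and eBayes of limma 3.58.1 (R 4.3.3, statmod 1.5.0), two-sided and with no covariate. Calls were made at an adjusted p under 0.05, by the Benjamini-Hochberg method over all 22180 genes. All called lipid genes are given array by array. From each further lipid list the 2 largest called rises and falls are named. From the lists of type 1, ciliated and club cells the 2 largest differences are named. Sftpd, Sftpc, Cebpa, Srebf2, Insig1 and Abhd5 were chosen after their values were seen. The members and lists were chosen with earlier results of these data known. Alternatives were a replicate block, quantile normalization, centring on array medians, array weights, leaving out genes below the 25th or the 50th percentile of level, averaged probe sets, a variance trend with robust fitting, a covariate for Y-linked expression, stricter thresholds, and fits without each array, without SP-C+ replicates 4 and 5, and without SP-C+ replicates 1, 2 and 3. Reading the fit of the brighter genes as a second background was chosen after seeing the data. The fit was tested on simulated data. No label says what arrays of the same replicate number share. Windows and motifs were read from RefSeq, assembly GRCm38.p6; Scd1, Scd2, Fads1, Elovl3, Dgat1, Dgat2, Agpat5, Pcyt2 and Ptdss1 had none here.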

Additional observations from a re-analysis of the deposited data

Results flagged for a closer look

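For each measured lipid gene, the highest and the lowest of the 5 arrays of each group were set against the others, in 88 groups, and 3 held an array far from the rest; chance flags about 1 in 20 groups. Srebf1 was 10.93 in SP-C+ replicate 1, whereas the other SP-C+ arrays ran from 10.20 to 10.37. Chka was 10.85 in SP-C+ replicate 4, below the other SP-C+ arrays at 11.07 to 11.14. Dgat1 was 9.06 in Axin2+ replicate 1, below the other Axin2+ arrays at 9.17 to 9.21. Without SP-C+ replicate 4 the difference of Chka was -0.27 (adjusted p = 0.0407, limma), and it passed the threshold.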

How the results depend on the processing

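No lipid gene changed direction while called in the 21 alternative fits; of the 18 called genes, 7 kept their call in every fit that held them (21 each, but 20 for Pcyt1b) and 15 in every fit that left out 1 array. Without SP-C+ replicates 1, 2 and 3, which leaves 2 SP-C+ arrays, 6 lipid genes were lower (15 with all arrays), the median difference was -0.11 (-0.21 with all arrays), and 8 of the 18 calls held. At an adjusted p under 0.01, 2249 genes in all were called and 7 lipid genes were lower; with a difference of at least 0.5 beside an adjusted p under 0.05, the counts were 2008 and 9. Leaving out 1 array gave 13 to 16 lower and 3 to 4 higher lipid genes, a median difference of -0.25 to -0.19, and 2974 to 4023 called genes in all. Y-linked genes had list means of 3.87, 8.85, 3.94, 9.24 and 4.02 in Axin2+ replicates 1 to 5. In SP-C+ replicates 1 to 5 the means were 7.11, 9.34, 9.08, 4.06 and 9.42. More SP-C+ than Axin2+ arrays thus had a high Y-linked signal, so the groups were not balanced in it. With a Y-linked covariate 11 lipid genes were lower. Acss2, Scd1, Fads1 and Lpin2 lost their calls there (adjusted p 0.0565, 0.0598, 0.0704 and 0.0557). Lpin2 lost its call with averaged probe sets too (adjusted p = 0.0818). Agpat3, Pcyt2, Ptdss2 and Lpcat1 passed the threshold under some settings, Lpcat1 with median centring (adjusted p = 0.0362). The cause of these changes was not tested.

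With the replicate number as a block (replicate block), 14 lipid genes were lower and 3 higher, the median difference was -0.21, and 2979 genes in all were called; Scd1 lost its call (adjusted p = 0.0846), and 5 genes of further lipid synthesis were lower (8 without the block). Deviations of same-numbered arrays correlated at -0.045, -0.07, 0.013, -0.229 and -0.184. With so few arrays, these values cannot tell whether the numbers pair the samples, and no label says so.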
